A study of Mus musculus with 26 samples.

Results

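The dual-specificity MAP kinase phosphatase genes Dusp1, Dusp2, Dusp4, Dusp5, Dusp6 and Dusp10 were followed in 2 lines of the mouse T lymphoma cell S49 during treatment with a cyclic AMP (cAMP) analogue. Their probe sets were taken by the gene symbol that the array's annotation gives, and not by any measured value. The list of genes was drawn up with earlier results of these data known. Of the 6 genes, 4 had a probe set that named them alone, with 5 probe sets in all among the 22626 on the array: 1448830_at for Dusp1, 1450698_at for Dusp2, 1415834_at for Dusp6, and 1417163_at and 1417164_at for Dusp10. Dusp4 and Dusp5 were not analysed here. Of the 4 genes, 3 passed the filter on low values, with 4 probe sets, and Dusp6 did not.

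S49 is an established line grown in suspension. Raised cAMP halts the division of wild-type (WT) cells and later kills them, and the variant D-, called deathless, survives it. WT cells and D- cells were either untreated or treated with 8-CPT-cAMP, a membrane-permeable analogue that activates protein kinase A (PKA), for 2, 6 or 24 h, which makes 8 groups on 26 arrays. Each line had 4 untreated arrays and 3 arrays at each treated time, all groups came from culture in the same kind of medium, and D- is a single variant line. The labels give the dose as 100 mM, a unit that may be an error. The labels call the replicates biological but name no separate cultures. The p-values therefore rest on the spread between arrays, and that spread may be technical.

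MAP kinases are switched on when a kinase above them phosphorylates a threonine and a tyrosine in their activation loop, and dual-specificity phosphatases switch them off by removing both phosphates. Several of the phosphatase genes are themselves induced by the signals they end, which makes them feedback regulators. Dusp1 is a nuclear, rapidly induced enzyme that acts on p38, JNK and ERK, Dusp10 prefers p38 and JNK, Dusp2 is a nuclear enzyme known from activated lymphocytes, and Dusp6 is a cytoplasmic enzyme selective for ERK. Cyclic AMP acts on many genes through PKA and the transcription factor CREB, which binds the palindrome TGACGTCA or its 5-letter core TGACG.

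The promoters of the 3 tested genes are shown because this palindrome is the textbook site of the signal applied. The sequences are RefSeq's, from the build GRCm38.p6, and hold the 250 bases before each gene's annotated start, read 5′ to 3′ on the gene's strand, with matches to TGACG on either strand in capitals. Dusp1 lies on the minus strand at chr17:26508473-26508722, Dusp10 on the plus strand at chr1:184034131-184034380, and Dusp2 on the plus strand at chr2:127335909-127336158.
Dusp1: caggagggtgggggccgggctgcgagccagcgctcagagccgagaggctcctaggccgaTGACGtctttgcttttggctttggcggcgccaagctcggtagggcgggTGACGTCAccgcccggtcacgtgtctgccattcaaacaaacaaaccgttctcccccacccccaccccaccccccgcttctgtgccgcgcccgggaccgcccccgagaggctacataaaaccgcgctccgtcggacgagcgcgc
Dusp10: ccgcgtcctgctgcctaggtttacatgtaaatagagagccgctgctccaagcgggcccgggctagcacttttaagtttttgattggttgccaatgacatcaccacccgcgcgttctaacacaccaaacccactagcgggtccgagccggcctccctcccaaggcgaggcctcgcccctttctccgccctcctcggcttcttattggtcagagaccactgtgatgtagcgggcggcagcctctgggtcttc
Dusp2: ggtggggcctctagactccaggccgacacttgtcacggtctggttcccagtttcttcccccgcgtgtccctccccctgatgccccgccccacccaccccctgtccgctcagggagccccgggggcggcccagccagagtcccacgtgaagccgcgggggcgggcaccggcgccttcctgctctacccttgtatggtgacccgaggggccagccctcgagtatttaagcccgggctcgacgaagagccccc

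The Dusp1 stretch held the full palindrome, starting 143 bases before the start, and a further TGACG starting 191 bases before it. The palindrome contains the core on each strand, so the Dusp1 window counted 3 core matches. Motifs were searched in windows of 300 bases, 250 before and 50 after the start, for 32851 promoters. Of these, 1.79% held TGACGTCA, 20.8% held TGACG and 1.03% held at least 3 core matches. The Dusp10 window held neither motif, and the only match in the Dusp2 window was a TGACG on the minus strand beyond the stretch shown, 5 bases after the start. A match is a description of the letters and does not show that a factor binds there.

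Levels are given as log2 of the authors' GCRMA intensity, so that a difference of 1 is a factor of 2 in intensity. limma was fitted to 12724 probe sets that reached log2 5 on at least 3 arrays, p-values were adjusted by Benjamini-Hochberg over all of them, and an adjusted p under 0.05 made a call. Arrays of a group correlated with each other at 0.972 to 0.995 across probe sets. Of 12 T cell markers, 11 were on the array and all 11 reached log2 5 on at least 3 arrays, against 1 of 5 measured B cell, 2 of 6 myeloid, 1 of 3 erythroid and 0 of 5 stromal markers. The log2 of the summed intensity was 13.97 to 15.41 for the T cell list, 6.12 to 6.98 for the B cell list and 6.64 to 7.82 for the myeloid list. The T cell receptor genes Cd3d, Cd3e and Cd3g lay between 9.44 and 13.34, whereas Cd4 (5.16 to 5.86) and Cd8a (5.71 to 6.45) were close to the filter. Cd247, also a receptor gene, ranged from 4.20 to 10.3 and reached log2 5 on only 15 of 26 arrays. Trat1 ranged from 4.40 to 11.1. In a bulk sample, fewer cells with a transcript and less of it in each cell cannot be told apart.

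The arrays also fell into 2 clusters that the labels do not name, by the sign of the first axis of their deviations from the group means, which held 38.8% of that variance. Replicate 1 of every treated group and replicates 1 and 2 of both untreated groups made up the 10 arrays of cluster 1, and the remaining 16 made up cluster 2. The difference between the 3′ and the 5′ control probes of Gapdh, which moves with RNA quality, averaged -0.146 ± 0.058 over cluster 1 (SD, n = 10), and over cluster 2 it averaged 0.018 ± 0.0942 (SD, n = 16). The clusters touched the members directly. Replicate 1 was the lowest array in all 6 treated groups for Dusp1 and for both Dusp10 probe sets. The mean deviation from the group mean was -0.44 ± 0.46 in cluster 1 and 0.28 ± 0.30 in cluster 2 for Dusp1. For the brighter Dusp10 probe set, 1417164_at, it was -0.36 ± 0.31 and 0.23 ± 0.17. For Dusp2 it was 0.09 ± 0.22 and -0.06 ± 0.29. Fits within each cluster are therefore given where they end a call named below, and in cluster 1 they rest on a single treated array per group and 2 residual degrees of freedom. What the clusters contribute to the results was not tested beyond those fits.

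**Figure D1:**
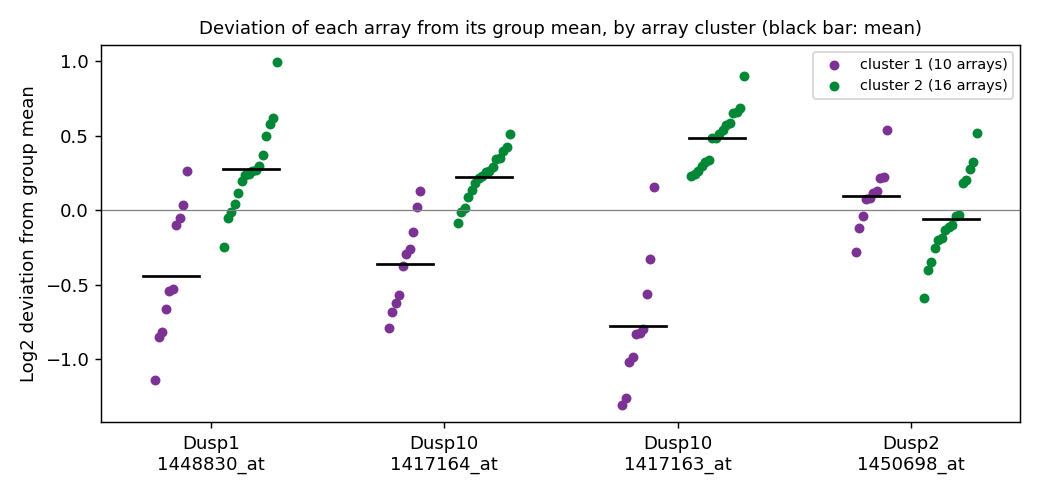
Deviation of every array from its group mean in log2 intensity (vertical axis) for the 4 tested probe sets (horizontal axis), with the 10 arrays of cluster 1 in purple, the 16 of cluster 2 in green and black bars for the cluster means. Cluster 1 lies below cluster 2 on average for Dusp1 and both Dusp10 probe sets, most widely for 1417163_at (-0.78 against 0.49), and slightly above it for Dusp2.

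Dusp1 was strongly raised at every time in both lines. The untreated WT arrays measured 6.67, 5.58, 6.91 and 7.71, and those at 2 h measured 10.40, 11.20 and 11.20. At 6 h the WT arrays were at 9.39, 10.87 and 10.48, and at 24 h at 8.90, 10.29 and 9.96. All 9 treated WT arrays therefore lay above all 4 untreated ones. In D- the untreated arrays measured 5.98, 6.21, 5.70 and 5.90, and those at 2 h measured 10.18, 10.39 and 10.27. The D- arrays were at 8.33, 9.37 and 8.92 at 6 h and at 7.73, 8.69 and 8.77 at 24 h. Again no treated array overlapped the untreated ones.

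The Dusp1 change at 2 h was 4.22 ± 0.42 (SE) in WT, an 18.6-fold rise with a limma adjusted p of 1.4e-07, and 4.33 ± 0.42 in D-, a 20.2-fold rise (adjusted p = 9.14e-08). At 6 h it was 3.53 ± 0.42 in WT (11.6-fold, adjusted p = 1.31e-06) and 2.93 ± 0.42 in D- (7.60-fold, adjusted p = 1.92e-05). At 24 h it was 3.00 ± 0.42 in WT (7.99-fold, adjusted p = 3.5e-06) and 2.45 ± 0.42 in D- (5.47-fold, adjusted p = 0.000105). In both lines the mean was highest at 2 h and was still raised at 24 h. Within cluster 1 the D- calls ended at 6 h (2.24, adjusted p = 0.0669) and 24 h (1.63, adjusted p = 0.115).

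Dusp10 was the other induced member, raised at every time in both lines. Its probe set 1417164_at measured 8.85, 8.43, 8.90 and 8.71 on the untreated WT arrays and 12.20, 12.48 and 12.36 at 2 h. The WT arrays were at 11.10, 11.77 and 11.56 at 6 h and at 11.70, 11.88 and 12.31 at 24 h. All 9 treated WT arrays lay above the 4 untreated ones, and those at 6 h all lay below those at 2 h. In D- the untreated arrays were at 6.99, 7.80, 8.29 and 8.04, and those at 2 h at 12.003, 12.79 and 12.93. At 6 h the D- arrays measured 10.60, 11.62 and 11.45, and at 24 h 10.47, 11.41 and 11.58. No treated array of either line overlapped its untreated arrays.

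In fold terms, Dusp10 rose 12.4-fold in WT at 2 h (log2 change 3.63 ± 0.31, SE; limma adjusted p = 1.3e-08) and 27.8-fold in D- (4.79 ± 0.31; adjusted p = 2.03e-10). In WT it was 6.74-fold higher at 6 h (2.75; adjusted p = 5.92e-07) and 9.45-fold higher at 24 h (3.24; adjusted p = 1.94e-08). In D- it was 10.9-fold higher at 6 h (3.44; adjusted p = 3.89e-08) and 10.4-fold higher at 24 h (3.37; adjusted p = 3.38e-08). These 6 calls held within each cluster and in every other alternative run. By size of change among the 12724 probe sets, Dusp10 ranked 40 in WT and 16 in D- at 2 h.

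The second Dusp10 probe set, 1417163_at, was dimmer and more widely spread, and moved the same way. Its group mean was 6.62 ± 0.73 (SD, n = 4) in untreated WT and 9.88 ± 0.74 (n = 3) at 2 h, against 5.51 ± 0.67 and 10.10 ± 1.13 in D-. Its changes at 2, 6 and 24 h were 3.26, 2.99 and 2.89 in WT and 4.58, 3.58 and 3.13 in D-, all 6 called. Both probe sets therefore gave the same calls against untreated cells.

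Dusp2 behaved differently, with a fall at 2 h that was followed by recovery. The untreated WT arrays measured 7.82, 8.33, 8.31 and 7.97, and those at 2 h 7.18, 6.87 and 6.86, with no overlap. At 6 h the WT arrays were at 8.54, 7.81 and 7.65 and at 24 h at 8.64, 8.79 and 8.11, and both times overlapped the untreated range. In D- the untreated arrays were at 7.17, 7.33, 7.39 and 6.96, and those at 2 h at 5.39, 5.82 and 4.72, all below them. The D- arrays at 6 h, at 6.39, 6.84 and 6.31, were still all below the untreated ones. At 24 h they measured 8.01, 7.90 and 7.89, all above them.

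The fall of Dusp2 at 2 h was 2.20-fold in WT (log2 change -1.14 ± 0.23, SE; limma adjusted p = 0.00085) and 3.75-fold in D- (-1.91 ± 0.23; adjusted p = 2.48e-06). The WT call ended within cluster 1 (-0.89, adjusted p = 0.119). In WT the change was -0.11 ± 0.23 at 6 h (adjusted p = 0.771) and 0.40 ± 0.23 at 24 h (95% interval -0.08 to 0.89, adjusted p = 0.155), neither of them called. In D- Dusp2 was 1.62-fold lower at 6 h (-0.70 ± 0.23; adjusted p = 0.0261) and 1.65-fold higher at 24 h (0.72 ± 0.23; adjusted p = 0.0196).

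Both of these later D- calls for Dusp2 were marginal. That at 6 h ended within cluster 1 (adjusted p = 0.116) and cluster 2 (0.173), and without D- untreated replicate 2 (0.0591) or 3 (0.0658) or D- 6 h replicate 1 (0.0844) or 3 (0.117). That at 24 h ended within cluster 1 (0.141) and cluster 2 (0.0943), and without D- untreated replicate 4 (0.0591) or D- 24 h replicate 1 (0.0535) or 2 (0.0511). The log2 change kept its sign in each of these fits.

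Dusp6 stayed near the bottom of the scale. Only 1 of 26 arrays, WT 6 h replicate 2 at 5.20, reached log2 5, and the other 25 lay between 3.67 and 4.68. Group means ran from 3.77 in untreated D- to 4.37 in WT at 6 h, all under the filter, so Dusp6 was not tested and no fold is given.

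**Figure D2:**
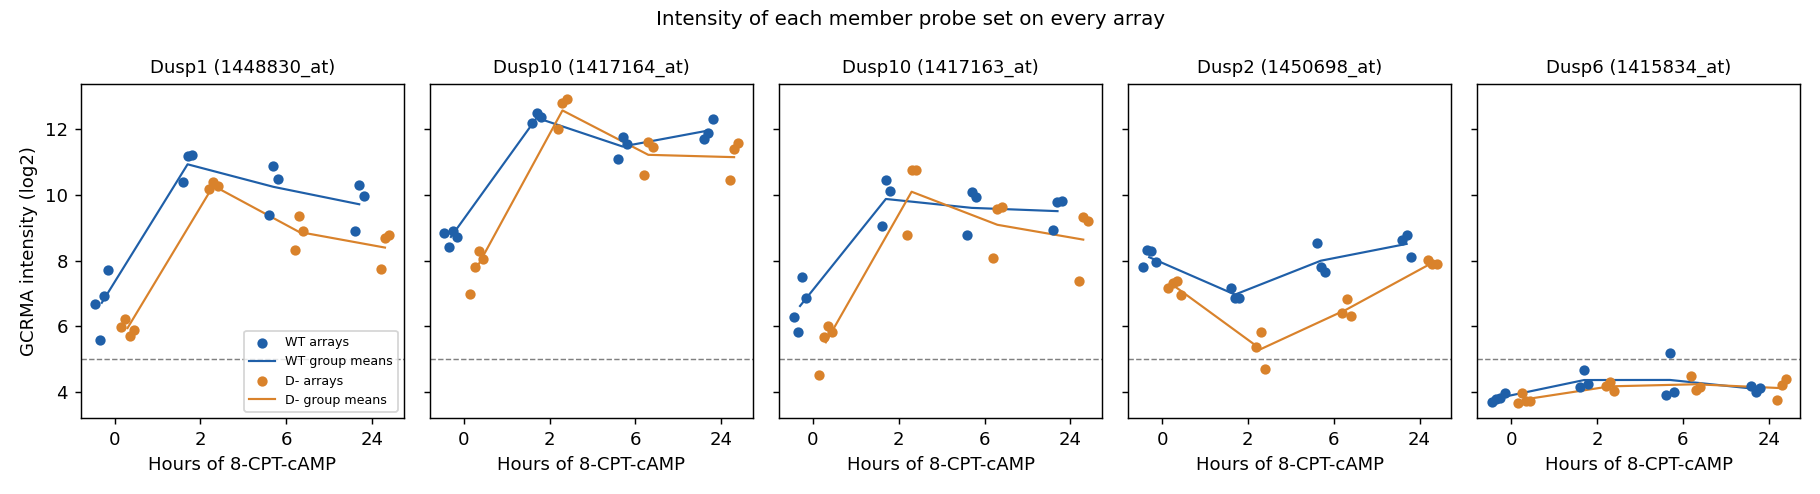
Log2 GCRMA intensity (vertical axis) of each of the 5 probe sets on every array against hours of 8-CPT-cAMP (horizontal axis, evenly spaced times), WT in blue and D- in orange, lines through the group means and a dashed line at the filter of log2 5. Dusp1 and both Dusp10 probe sets climb at 2 h and stay up, Dusp2 dips at 2 h, to a mean of 6.97 in WT and 5.31 in D-, and Dusp6 stays under the dashed line on 25 of 26 arrays.

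Counted over the 3 tested members, all 3 were called in WT at 2 h, 2 higher and 1 lower, where 24.6% of all probe sets tested were called, 11.6% higher and 13.1% lower. In WT at 6 h 2 of 3 were called, both higher, against 36.2% of all probe sets (17.6% higher, 18.6% lower). In WT at 24 h 2 of 3 were called, both higher, against 52.6% (24.6% higher, 28% lower). In D- at 2 h all 3 were called, 2 higher and 1 lower, against 21.7% (9.29% higher, 12.4% lower). In D- at 6 h all 3 were called, 2 higher and 1 lower, against 30.4% (15.4% higher, 14.9% lower). In D- at 24 h all 3 were called higher, against 33.4% (16% higher, 17.4% lower). The median change of all probe sets lay within 0.03 of 0 on the log2 scale in each of these comparisons. With 3 genes, and backgrounds this high, the counts say little beyond the sizes of the changes. The 6 comparisons with untreated cells share their 4 untreated arrays within a line.

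**Figure D3:**
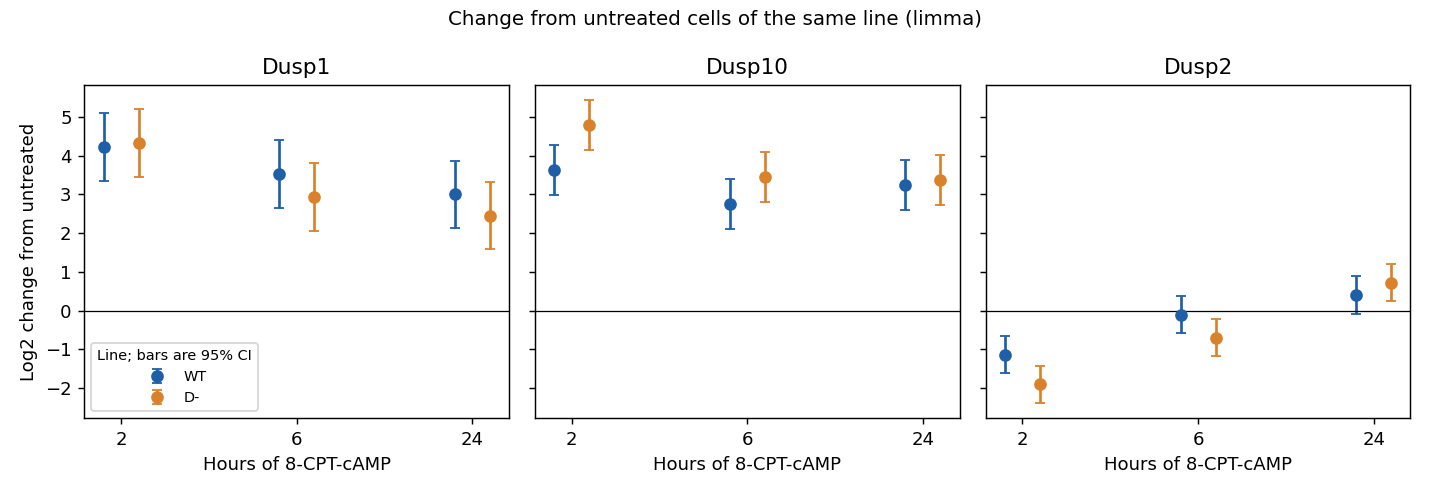
Log2 change from untreated cells of the same line (vertical axis) at 2, 6 and 24 h of 8-CPT-cAMP (horizontal axis) for Dusp1, Dusp10 and Dusp2, as limma estimates with 95% intervals, WT in blue and D- in orange. The intervals of Dusp1 and Dusp10 lie wholly above 0 at every time, and those of Dusp2 lie below 0 at 2 h in both lines and include 0 in WT at 6 and 24 h.

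Before treatment, the 3 tested members had lower means in D- than in WT. For Dusp2 the difference was -0.89 ± 0.22 (SE), or 1.86-fold lower, with a limma adjusted p of 0.0154, and the highest untreated D- array (7.39) lay below the lowest untreated WT array (7.82). Dusp2 was the only member of 3 called, against a background of 4.53%. Its call ended within cluster 1 (adjusted p = 0.199) and cluster 2 (0.108), and without D- untreated replicate 4 (0.0679) or WT untreated replicate 2 (0.0528) or 3 (0.0572). For the brighter Dusp10 probe set the difference was -0.94 ± 0.29 (limma adjusted p = 0.0669), with arrays that did not overlap. For the dimmer Dusp10 probe set it was -1.11 ± 0.53 (limma adjusted p = 0.375), with arrays that overlapped. The value of the brighter probe set passed with array weights (0.017), without D- untreated replicate 3 (0.037), within cluster 2 (0.0264) and with a block for the cluster (0.00143). For Dusp1 the difference was -0.77 ± 0.39 (limma adjusted p = 0.408), with overlapping arrays. That value became -1.51 within cluster 2 (adjusted p = 0.00173) and -1.13 with array weights (0.0222), but -0.03 within cluster 1 (0.978).

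Whether the response itself differed between the lines was tested as an interaction, the D- change minus the WT change. None of the 3 members was called at 2, 6 or 24 h, where 0.212%, 0.519% and 11.8% of all probe sets were called. At an unadjusted p under 0.05 there were 2 members at 2 h, Dusp10 and Dusp2, and 0 at 6 and 24 h, against 5.79%, 6.21% and 24.7% of all probe sets. For Dusp10 at 2 h the interaction was 1.17 ± 0.44 (95% interval 0.26 to 2.07, limma adjusted p = 0.597), which became a call within cluster 2 (1.08, adjusted p = 0.0487). For Dusp2 at 2 h it was -0.77 ± 0.33 (interval -1.45 to -0.08, adjusted p = 0.766). Neither estimate passed the correction over all probe sets, although both had the sign of a wider change in D-, up for Dusp10 and down for Dusp2. These Dusp10 values are of its brighter probe set. The dimmer one gave 1.33 at 2 h, with a 95% interval of -0.37 to 3.02 that includes 0. For the brighter one the 2 h arrays of the lines overlapped, at means of 12.57 in D- and 12.35 in WT. Its untreated means were 7.78 in D- and 8.72 in WT, so the lower start in D- enters the estimate.

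For Dusp1 the interaction was 0.12 ± 0.59 at 2 h (interval -1.12 to 1.35), -0.60 at 6 h (-1.84 to 0.63) and -0.55 at 24 h (-1.78 to 0.69), with adjusted p of 0.999, 1 and 0.638. For Dusp10 it was 0.69 at 6 h (-0.22 to 1.60, adjusted p = 0.976) and 0.13 at 24 h (-0.78 to 1.04, 0.901). For Dusp2 it was -0.59 at 6 h (-1.28 to 0.09, adjusted p = 0.916) and 0.32 at 24 h (-0.36 to 1.0, 0.619). These intervals are wide, so differences of response up to these bounds remain possible.

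The steps between times show how the early response moved on. From 2 to 6 h, Dusp2 rose by 1.03 ± 0.25 (SE) in WT (limma adjusted p = 0.00542). It was the only call of 3 members there in the fit without a block, against a background of 21.6%. A block for the replicate number added a call for Dusp10 (-0.87, adjusted p = 0.0067). The Dusp2 call ended within cluster 1 (a change of 1.36) and cluster 2 (0.87, adjusted p = 0.0613). In D- all 3 members changed from 2 to 6 h, against a background of 22.4%. Dusp2 rose by 1.21 ± 0.25 (adjusted p = 0.00129). Dusp10 fell by 1.35 on the log2 scale (SE 0.33, adjusted p = 0.0051) and Dusp1 fell by 1.41 (SE 0.45, adjusted p = 0.0276). So the 2 induced genes came down while the repressed gene came back.

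The Dusp1 step in D- was a marginal call. It ended within cluster 1 (adjusted p = 0.175), with no filter on dim probe sets (0.0505), without D- 2 h replicate 1 (0.0508), 2 (0.0776) or 3 (0.0651), and without D- 6 h replicate 1 (0.116) or 3 (0.0643). The Dusp10 step ended within cluster 1 (0.199) and with the mean of both probe sets (0.0648), and 1417163_at alone gave -1.01 (adjusted p = 0.258). The Dusp2 step ended within cluster 1 (0.166). In WT the same step was -0.69 for Dusp1 (adjusted p = 0.299) and -0.87 for Dusp10 (adjusted p = 0.0635). The Dusp10 value passed with only the groups compared in the fit (0.031), with median centring (0.0398), with array weights (0.0169), within cluster 2 (0.00387), with a block for the cluster (0.00284) and with a block for the replicate number (0.0067), by which same-numbered arrays of these 2 groups deviated together.

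From 6 to 24 h, none of the 3 members was called in WT, against a background of 30.9%. At an unadjusted p under 0.05 the count was 0 too, against 39.9% of all probe sets. The WT values were -0.53 for Dusp1 (limma adjusted p = 0.412), 0.51 for Dusp2 (0.129) and 0.49 for Dusp10 (0.292). Dusp2 passed without WT 6 h replicate 1 (0.78, adjusted p = 0.023), and Dusp10 with array weights (0.0136) and within cluster 2 (0.0438). The second Dusp10 probe set, 1417163_at, gave -0.10 (adjusted p = 0.929). In D-, Dusp2 rose by a further 1.42 ± 0.25 (adjusted p = 0.000427), the only member called against a background of 14.9%, and that call ended within cluster 1 (0.103). Dusp1 (-0.48, adjusted p = 0.555) and Dusp10 (-0.07, 0.927) did not pass in D-. The repressed member thus climbed across both steps in D-, from a mean of 5.31 at 2 h to 6.51 at 6 h and 7.94 at 24 h.

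Ordered by level, Dusp1 was highest in WT at 2 h (10.93 ± 0.46, SD, n = 3), followed by D- at 2 h (10.28 ± 0.11), WT at 6 h (10.25 ± 0.76), WT at 24 h (9.72 ± 0.73), D- at 6 h (8.87 ± 0.52), D- at 24 h (8.40 ± 0.58), untreated WT (6.72 ± 0.88, n = 4) and untreated D- (5.95 ± 0.21, n = 4). Arrays of neighbouring groups in that order overlapped everywhere except between the first and the second and between D- at 24 h and untreated WT. For Dusp10 the order ran from D- at 2 h (12.57 ± 0.50) through WT at 2 h (12.35 ± 0.14), WT at 24 h (11.96 ± 0.31), WT at 6 h (11.48 ± 0.34), D- at 6 h (11.22 ± 0.55) and D- at 24 h (11.15 ± 0.60) to untreated WT (8.72 ± 0.21) and untreated D- (7.78 ± 0.57). All treated groups overlapped their neighbours, and the gaps lay between treated and untreated groups and between the 2 untreated groups. That order is of the brighter Dusp10 probe set. For the dimmer one, arrays of neighbouring groups overlapped throughout.

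Dusp2 had an order of its own, with both 2 h groups among the 3 lowest. WT at 24 h (8.51 ± 0.36), untreated WT (8.11 ± 0.25), WT at 6 h (8.00 ± 0.47) and D- at 24 h (7.94 ± 0.07) overlapped as neighbours. Untreated D- (7.21 ± 0.19) and WT at 2 h (6.97 ± 0.19) overlapped each other and stood apart from those above and below. D- at 6 h (6.51 ± 0.28) and D- at 2 h (5.31 ± 0.56) were each separate from their neighbours.

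Across the 8 group means, Dusp1 and Dusp10 correlated with each other (Pearson r 0.959), while Dusp2 correlated with neither (-0.252 with Dusp1 and -0.291 with Dusp10). The genes most like each member by this measure were sought among 7434 other genes. For Dusp1 they were Riok3 (r 0.981), Septin2 (0.980) and Nabp1 (0.975). For Dusp10 they were Ist1 (0.985), the forkhead transcription factor gene Foxo1 (0.979) and Rgs2 (0.977), a regulator of G protein signalling. For Dusp2 they were Dynlt1f (0.982), Slc37a1 (0.976) and St3gal3 (0.976). These are descriptions over 8 points that share arrays and treatment, and they are the highest of 7434 values.

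The rest of the pathway was described from 10 lists holding 104 genes, of which 51 were tested. Outside the steps between times, 82 of 123 called values of these lists lost their call in at least 1 alternative. The counts below therefore include calls that are not firm. At 2 h the counts in these lists stand beside 11.6% of all probe sets higher and 13.1% lower in WT, and 9.29% and 12.4% in D-, so that 1 gene of 8 is close to the share of all probe sets. Among the other phosphatases of the same family, only Dusp7, an ERK phosphatase, was tested of 4 listed. Its change was -0.46 in WT at 6 h (limma adjusted p = 0.0203), and -0.45 (0.0362) and -0.49 (0.0172) in D- at 2 and 6 h. None of the 3 calls was stable. That in WT at 6 h ended with array weights (-0.23, adjusted p = 0.208), with only the groups compared (0.089), within cluster 2 (-0.20, 0.451) and without 4 single arrays in turn (0.0651 to 0.0983). That in D- at 2 h ended with only the groups compared (0.0539), with quantile normalization (0.12), median centring (0.0863), no filter (0.0539), within cluster 1 (0.203) and without 5 single arrays in turn (0.055 to 0.129). That in D- at 6 h ended within cluster 1 (-0.13, 0.629) and without D- untreated replicate 3 (0.0693) or D- 6 h replicate 2 (0.104) or 3 (0.0566).

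Of 8 atypical dual-specificity phosphatases, 1 rose and 4 fell in WT at 2 h, and 1 rose and 1 fell in D- at 2 h. The list medians were -0.25 and -0.09 against 0.0053 and -0.0035 for all probe sets. The 4 that fell in WT were Dusp12, Dusp14, Dusp19 and Dusp22. All 4 calls ended within cluster 1, and those of Dusp12 and Dusp14 within cluster 2 as well. Those of Dusp12, Dusp14 and Dusp22 also ended with some single arrays left out. The riser was Dusp11, an RNA phosphatase. It was higher at 2, 6 and 24 h by 1.04, 1.05 and 1.04 in WT and by 1.07, 0.74 and 0.83 in D-, with limma adjusted p at or under 0.000271. With the mean of all its probe sets the D- call at 2 h ended (0.30, adjusted p = 0.0617). Within cluster 1 the Dusp11 calls ended in WT at 2, 6 and 24 h (0.0697, 0.0516 and 0.0702, the last with a change of 0.53) and in D- at 6 and 24 h (0.0682 and 0.0601). Dusp12 fell in WT by 0.61 at 6 h (adjusted p = 0.00561), a call that ended within cluster 1 (-0.39, 0.13), and by 0.80 at 24 h (adjusted p = 0.000249). Among 3 other phosphatases that act on MAP kinases, 2 rose in WT and 1 in D- at 2 h, with list medians of 0.43 and 0.12. The WT call of Ppm1b ended within each cluster and with some single arrays left out. Ppm1d, a stress-induced phosphatase that also acts on p38, rose at 2 h by 1.06 in WT (5.05e-06) and 0.97 in D- (1.62e-05).

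**Figure D4:**
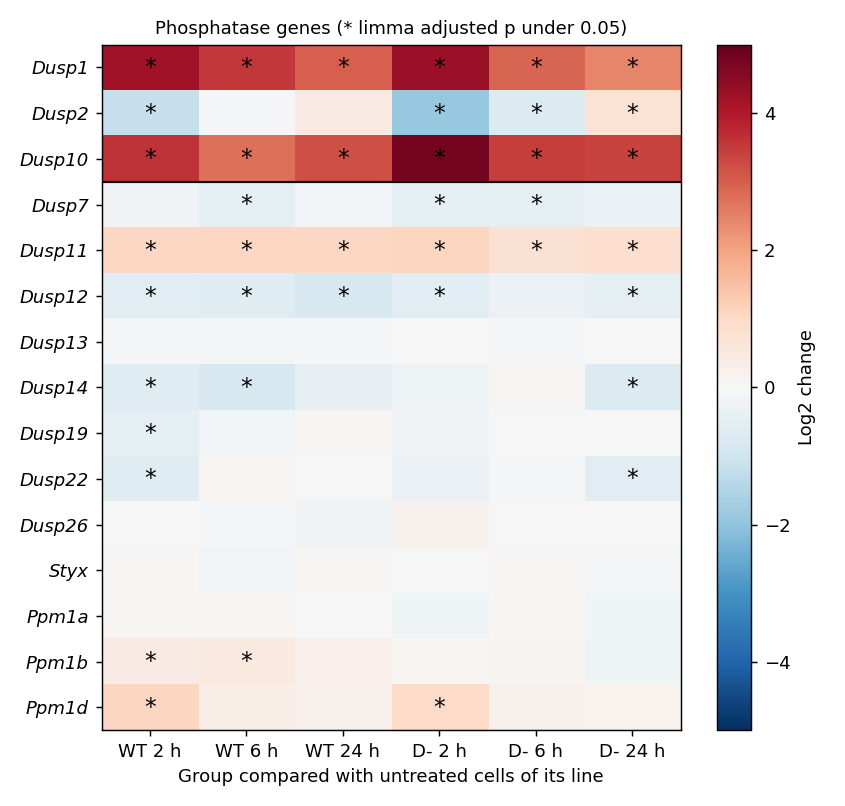
Log2 change from untreated cells of the same line (colour, red higher and blue lower) for the 3 tested members above the black line and 12 other phosphatase genes below it (vertical axis), in each line and time (horizontal axis), with a star at an adjusted p under 0.05. The changes of Dusp1 and Dusp10 reach 4.33 and 4.79, while those of the 12 others stay within about 1.1 of 0.

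Of the 5 MAP kinases tested, the substrates of these phosphatases, none rose against untreated cells at any time. At 2 h 1 of 5 fell in each line, with list medians of -0.19 in WT and -0.22 in D-. At 24 h 3 fell in WT and 2 in D-, where 28% and 17.4% of all probe sets were lower. Of the 3 in WT, Mapk7 lay at the filter, with means of 5.03 untreated and 4.65 at 24 h. With values under 5 raised to 5 its change was -0.03 (limma adjusted p = 0.73). Its call also ended with array weights (0.0904), only the groups compared (0.105), within cluster 2 (0.243) and without WT 24 h replicate 1 (0.262). Mapk6, which encodes the atypical kinase ERK3, fell in WT at 24 h by 1.05 (limma adjusted p = 2.91e-05), a call kept in every alternative though -0.51 with the mean of its probe sets, and its change was -0.60 in D- (0.0103). The D- call for Mapk6 ended with only the groups compared (0.0769), within cluster 1 (0.0575) and without D- 24 h replicate 1 (-0.38, 0.0979). Mapk14, which encodes p38 alpha, was lower in WT by 0.52, 0.46 and 0.41 and in D- by 0.89, 0.39 and 0.45 at 2, 6 and 24 h. Its calls at 2 h ended with the mean of its probe sets (limma adjusted p = 0.255 in WT and 0.0559 in D-), and that at 6 h in D- with the same mean (0.185) and without D- 6 h replicate 2 (0.0837). Within cluster 1 the Mapk14 calls ended in WT at 2, 6 and 24 h (0.079, 0.123 and 0.0853) and in D- at 6 and 24 h (0.177 and 0.0559), and those later D- calls ended within cluster 2 as well (0.061 and 0.0958).

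Of 6 MAP kinase kinases, which activate the MAP kinases, 1 rose and 2 fell at 2 h in each line, with list medians of 0.02 in WT and 0.04 in D-. Map2k3, a p38 activator, rose at 2 h by 1.26 in WT and 1.25 in D- (adjusted p = 7.13e-06 and 8.57e-06). Map2k6, the other main p38 activator, had a change of -2.03 in WT (0.00196) and -1.74 in D- (0.00758), and Map2k5, the ERK5 activator, of -0.76 (0.000536) and -0.82 (0.000273).

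Further upstream, 4 of 7 MAP kinase kinase kinases rose and 1 fell in WT at 2 h, and 3 rose and 1 fell in D-. The list medians were 0.43 and 0.03. The calls of Map3k3 in WT and of Map3k7 in both lines ended within cluster 1 and with some single arrays left out. That of Map3k3 ended within cluster 2 as well. The calls of Map3k11 and of Araf, the gene that fell, ended within cluster 1 in both lines. In D- the Map3k11 call also ended within cluster 2 (limma adjusted p = 0.205) and with only the groups compared (0.0725). It ended there without D- 2 h replicate 1 (0.106) or 2 (0.12) too. Map3k1 was higher in all 6 comparisons, by 1.01, 0.80 and 1.24 in WT and 0.64, 0.60 and 0.89 in D-. Within cluster 1 its D- calls ended at 2 h (0.60, limma adjusted p = 0.0884), 6 h (0.49, 0.116) and 24 h (0.35, 0.201). Of 6 genes for Ras inputs, 2 rose in WT and 1 in D- at 2 h, and none fell, with list medians of 0.37 and 0.10. The WT call of Rasa1 ended within cluster 1 and with some single arrays left out. The adaptor gene Grb2, which links receptors to Ras, rose in all 6, by 1.15, 1.01 and 0.54 in WT and by 1.47, 1.52 and 1.40 in D-. Its call in WT at 24 h ended within cluster 2 (0.50, limma adjusted p = 0.0588). The D- minus WT difference of its response at 24 h was 0.85 (limma adjusted p = 0.00651), and it ended within cluster 1 (0.167) and cluster 2 (0.0514).

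Among genes downstream or in other feedback loops, Mknk2, a kinase activated by ERK and p38, was the only one of 5 tested MAP kinase-activated kinases to rise at 2 h in either line. The related Mknk1 fell in WT at 2 h by 0.53 (limma adjusted p = 0.0198), a call that ended with only the groups compared (0.104), within cluster 1 (0.0716) and without 3 single arrays in turn (0.0522 to 0.168). The list medians were 0.275 in WT and 0.173 in D-. Mknk2 was higher in all 6 comparisons, by 0.69, 1.04 and 0.78 in WT and 0.67, 1.10 and 0.97 in D-. Spred2, a feedback inhibitor of the Ras to ERK route and the only tested gene of 6 Sprouty and SPRED genes, rose at 2 h by 1.23 in WT (limma adjusted p = 9.01e-05) and 0.96 in D- (0.00127). Of 9 ERK-responsive transcription genes, 3 rose and 2 fell at 2 h in each line, with list medians of 0.23 and 0.09. The risers were Fos, by at least 4.33 in WT and 5.31 in D- since its untreated means lay under log2 5, Junb, by 2.23 and 2.13, and Ier2, by 1.37 and 1.63. Those that fell were Srf, by 0.83 in WT and 0.58 in D-, and Elk3, by 0.97 in WT and at least 1.44 in D-. Within cluster 1 the calls at 2 h ended for Map2k5 (adjusted p = 0.0988 in WT and 0.0932 in D-), Mknk2 (0.0981 and 0.0809), Spred2 (0.0571, and 0.363 with a change of 0.40) and Srf (0.0625 and 0.122). With the mean of its probe sets the Srf call in D- ended as well (0.162).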

How the data were processed

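RNA of untreated and 8-CPT-cAMP-treated S49 cells was measured on 26 single-colour Affymetrix arrays, 1 per sample, and groups and replicate numbers came from the labels. The titles of treated WT samples read untreated beside a time. Their source and description name the treatment and were followed. The authors summarised probe sets with GCRMA, per the submitters' processing notes, and the deposited intensity values are linear, from 2 to 83530.7. The GCRMA version, and whether both lines went through a single run, were not stated. GCRMA makes the arrays' distributions alike, which hides any change common to most probe sets, and low values are compressed.

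The deposited intensity was taken to log2 with no pseudocount. Of 22690 probe sets, 64 were array controls. The platform annotation gave 20380 probe sets a single gene symbol, 691 several and 1555 none. Tests covered the 12724 probe sets that reached log2 5, an intensity of 32, on 3 arrays or more. The brightest probe set stood for each of 7435 genes. limma 3.58.1 in R 4.3.3 estimated 8 group means, with 18 residual degrees of freedom (3.34 prior), and 14 contrasts were each adjusted by Benjamini-Hochberg. Intervals are 95% intervals of that fit, and the number of arrays limits their precision. Where a group mean was under log2 5 the change is a bound from 5, or no fold is given. The fit was tested on simulated data.

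The members, the lists, the array clusters and the rule for naming genes were chosen with earlier results of these data known. The rule took all members, the 3 genes most like each tested member, and from each list its counts and up to 3 called genes per comparison, of which the text prints a choice made after seeing the values. Promoters came from RefSeq (GRCm38.p6), whose table held 5 of the 6 members. Deviations of same-numbered arrays correlated above 0.1 in every pair for the 4 steps between treated times (0.301 to 0.655), where the numbers were taken to pair arrays. In each comparison with untreated cells, and between the untreated lines, at least 1 pair did not, and the numbers were not taken to pair arrays there. Alternatives were trend and robust eBayes, array weights, a fit of the compared groups alone, quantile normalization, median centring, filters at log2 7 or none, values under 5 raised to 5, the mean of a gene's probe sets, a block for replicate number or array cluster, and leaving out single arrays. Fits within clusters were added after seeing the data. Figures used matplotlib 3.10.9, numpy 2.4.6 and Python 3.11.15.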

Additional observations from a re-analysis of the deposited data

Results flagged for a closer look

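Of the 3 tested members and the 51 tested genes of the lists, 2 had a response at 24 h that differed between the lines. The test was the limma interaction, by which 11.8% of all probe sets were called, so this count lies below the background share. Neither gene is a phosphatase. For Grb2 the D- minus WT difference was 0.85 (adjusted p = 0.00651), from group means of 9.70 before and 11.09 after treatment in D- and 10.07 and 10.61 in WT. For Junb it was -1.77 (adjusted p = 0.0376), from 5.72 and 5.88 in D- and 5.83 and 7.76 in WT. The Junb call ended with only the groups compared in the fit (0.0555), with no filter (0.0705), within cluster 1 (-0.64, 0.167) and without 11 single arrays in turn, among them WT 24 h replicate 2 (-1.35, 0.15). A test of the gap between an extreme array and its nearest neighbour flagged no untreated array of a member, in 10 comparisons. With 4 arrays it can miss a spread to both sides, as for Dusp1 in untreated WT (5.58 to 7.71, SD 0.88).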

How the results depend on the processing

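Of 42 member values tested, 22 were called, and 11 of these kept their call in every alternative: both lines at 2 h for Dusp1 and Dusp10, Dusp1 in WT at 6 and 24 h, Dusp10 at 6 and 24 h in both lines, and Dusp2 in D- at 2 h. Of the 20 values not called, 14 stayed so throughout. Falls in the number of members called from 3 to 2, where a single member lost its call, are not listed below. The number of members called fell within cluster 1 to 1 at 6 h and 1 at 24 h in D-. It fell there to 0 for untreated D- against WT, for the step from 2 to 6 h in each line and for that from 6 to 24 h in D-. For untreated D- against WT it was 3 with array weights, 2 with the array cluster as a block, 2 within cluster 2 and 0 to 2 with an array left out. For the step from 2 to 6 h in WT it was 2 with array weights, with only the groups compared, with median centring and with the array cluster as a block. For the step from 6 to 24 h in WT it was 1 with array weights, 1 within cluster 2 and 0 to 1 with an array left out, and for the interaction at 2 h it was 1 within cluster 2. The replicate block (same-numbered arrays correlated at -0.468 to 0.655 in 34 pairs, 27 of them over 0.1) moved 2 counts, to 2 for untreated D- against WT, where Dusp10 passed (adjusted p = 0.0043), and to 2 for the WT step from 2 to 6 h. It changed no other call of a member.

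Signs turned only for values that were not called. Dusp2 in WT at 6 h was 0.46 within cluster 1 and -0.38 to 0.067 with an array left out. The Dusp1 interaction was -0.20 at 2 h within cluster 1, -0.21 to 0.50 there with an array left out, and 0.12 at 24 h within cluster 2. With an array left out, the Dusp10 interaction at 24 h was -0.13 to 0.47 and its D- step from 6 to 24 h -0.38 to 0.27. The cause of these shifts was not tested, except that fits within cluster 1 rest on fewer arrays. Of 123 called values of the pathway lists, 41 kept their call throughout and 36 lost it only within a cluster. Signal near the floor of log2 5 limits Dusp6, and 3 or 4 arrays per group limit the interactions.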
